A study of Mus musculus with 15 samples.

Results

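Retinas that had lost 1 copy of Neurog2 in Cre-expressing cells were compared with retinas that carried no Cre, in CD-1 mice at postnatal day 2 (P2). The compared group, HET, carries Chx10Cre with 1 floxed and 1 wild-type Neurog2 allele (Chx10Cre;Neurog2CKO/+). The reference group, called WT by the submitters, has both Neurog2 alleles floxed and no Cre (Neurog2CKO/CKO). Both groups therefore carry a floxed allele, but WT has 2 of them and HET has 1. The presence of Cre, the loss of a copy and the number of floxed alleles cannot be told apart. Bulk RNA from 5 WT and 5 HET samples, 10 of the 15 in the series, enters this comparison, and 5 further samples (MUT) carry Chx10Cre with both alleles floxed. Transcript values of each gene symbol were summed, and a gene was kept if it reached 1 FPKM in WT or HET. FPKM scales fragments to the length of the transcript and to the mapped fragments of the library. The rule kept 13694 of 15871 gene symbols, and each is described by log2((HET + 0.1)/(WT + 0.1)), called its log2 ratio below.

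Neurog2 belongs to the proneural family of basic helix-loop-helix (bHLH) factors. It binds E-box sites as a dimer with E proteins and drives progenitors to leave the cell cycle and become neurons. In the retina it is made by a part of the progenitor pool. The Cre of HET acts in retinal progenitors and in the cells that they form. At P2 the mouse retina still contains dividing progenitors that form rods, late amacrine cells, bipolar cells and Müller glia.

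Only 1 pooled value per group was given for each transcript, so no spread between samples and no sequencing depth can be stated. The authors' deposited table listed a Cuffdiff test for each of 44119 transcripts. None had a q-value under 0.05 (0%), and 227 (0.515%) had an unadjusted p under 0.05, 100 of them higher (0.227%) and 127 lower (0.288%) in HET. The smallest p that the authors' deposited table holds, 5e-05, was shared by 21 transcripts whose q-value was 0.0769. No difference below therefore passed a corrected test, and p-values are the authors' unadjusted ones unless a q-value is named. Each ± is the absolute value of a deposited log2 fold change divided by its test statistic, a nominal standard error. The deposited p-values did not follow the size of that statistic, so a ± and the p-value beside it need not match. Among the genes kept, 205 (1.50%) had at least 1 transcript at p under 0.05, with 90 (0.657%) on the higher and 117 (0.854%) on the lower side. The genes at the edge of the filter were flat, for example Dmrtb1 just inside at 0.9604 and 1.0001 FPKM and Map3k5 just outside at 0.9620 and 0.9995 FPKM.

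The labelled tissue matched its markers. Crx, a homeodomain factor of photoreceptors, stood at 216.2 FPKM in WT against 199.1 FPKM in HET, and Pax6, a factor of progenitors and amacrine cells, at 382.2 and 400.2 FPKM. Of 25 lens genes on the list used, 20 were under 1 FPKM or not in the table.

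Much of the difference between the groups lay in small non-coding RNAs, so the 4 most abundant small RNAs at the smallest p are shown first. Rny1 and Rny3 are Y RNAs, small cytoplasmic RNAs bound by the Ro60 protein. Gm24265 and Gm24407 are annotated as small nuclear RNAs. The sequences are from GENCODE transcripts on GRCm38, the assembly of mm10, written 5′ to 3′. Rny1 lies on the minus strand at chr6:47788069-47788180, and Rny3 on the plus strand at chr6:47781624-47781725. Gm24265 and Gm24407 lie on the plus strand at chr5:115489459-115489599 and chr5:115490254-115490394. Capitals in the Y RNAs mark runs of 8 or more bases that both share in their alignment, and capitals in the other pair mark the 2 bases at which they differ.
Rny1: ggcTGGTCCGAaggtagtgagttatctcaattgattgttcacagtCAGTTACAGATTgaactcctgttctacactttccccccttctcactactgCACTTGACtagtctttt
Rny3: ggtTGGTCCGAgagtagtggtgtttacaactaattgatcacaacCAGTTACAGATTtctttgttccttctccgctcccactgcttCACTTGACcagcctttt
Gm24265: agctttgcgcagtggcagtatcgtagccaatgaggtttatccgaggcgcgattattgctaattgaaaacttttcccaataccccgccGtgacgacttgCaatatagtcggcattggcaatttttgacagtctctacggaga
Gm24407: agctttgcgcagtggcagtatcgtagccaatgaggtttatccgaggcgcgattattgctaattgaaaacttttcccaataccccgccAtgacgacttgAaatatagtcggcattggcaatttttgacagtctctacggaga
The Y RNAs are identical at 81 of 112 aligned columns (72.3%). The other pair is identical at 139 of 141 bases (98.6%) and differs by G88A and C99A, counted from the 5′ end of Gm24265, so that reads from one can match the other at most positions.

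Neurog2 itself (ENSMUSG00000027967.8, chromosome 3, 127633135 to 127635631, mm10) stood at 59.2 FPKM in WT against 42.4 FPKM in HET, which is 71.6% of the WT value. The authors' deposited table gave a log2 fold change of -0.48 ± 0.28 (Cuffdiff, p = 5e-05, q = 0.0769). In the separate table of WT and MUT, Neurog2 stood at 59.5 and 10.6 FPKM. That table uses the same WT samples, so its values are set beside those of HET and are no separate replicate. Of the 7 other genes kept within 500 kb of Neurog2, 3 had a ratio above 0 and 4 below, with a median of -0.17. The lowest were Alpk1, an innate immune kinase (2.34 to 1.51 FPKM, log2 ratio -0.60), and Zgrf1, a putative helicase (6.67 to 5.05 FPKM, -0.40). In the table of WT and MUT these genes had log2 ratios of 0.19 and 0.02. For a transcript of Zgrf1, the authors' deposited table listed p = 0.0192.

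Most other genes had nearly the same value in both groups. The median log2 ratio was 0.01, with quartiles of -0.06 and 0.08 and with the 5th and 95th percentiles at -0.22 and 0.31. Of the genes kept, 12207 (89.1%) were within 0.25 of 0, and 7259 (53.0%) were above 0. Only 56 genes (0.409%) were 2-fold or more higher in HET and 134 (0.979%) 2-fold or more lower. The spread shrank with level, from -0.48 to 0.56 (5th to 95th percentile) at 1 to 2 FPKM to -0.13 to 0.18 at 20 to 100 FPKM. The same WT samples, quantified in 2 of the tables, differed by a median of 0.008 and by 0.115 at the 99th percentile, and the HET samples by 0.003 and 0.118. Those figures cover the processing and not the spread between retinas.

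**Figure D1:**
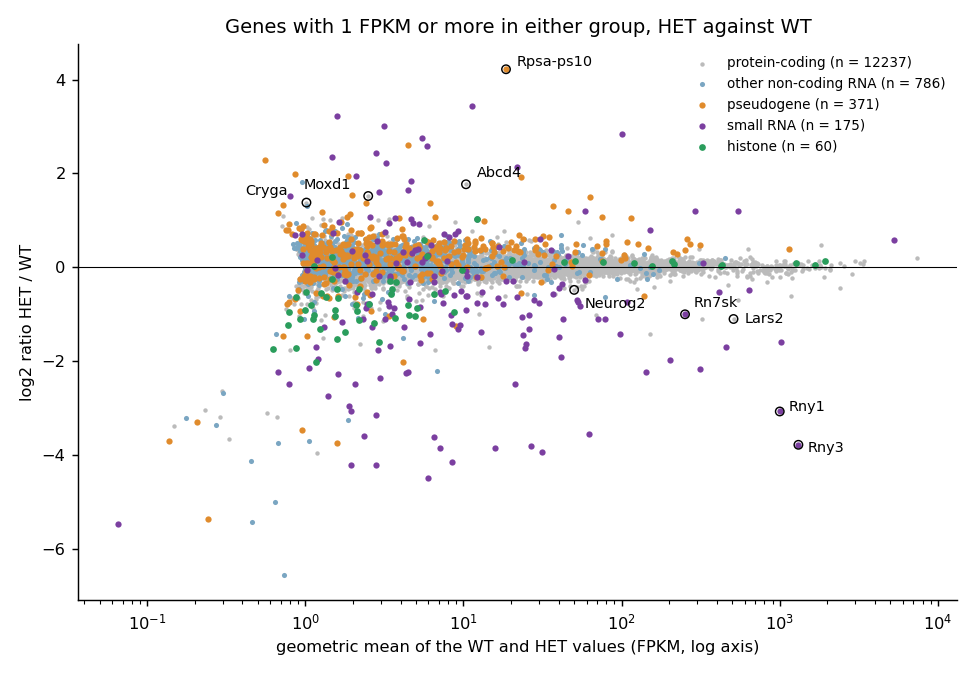
Log2 ratio of HET over WT for each gene with 1 FPKM or more in either group (vertical axis) against the geometric mean of both group values in FPKM (horizontal log axis), coloured by gene class. Protein-coding genes (12237) have a median of 0.00. The points far from 0 at high levels include small RNAs such as Rny1 (-3.07) and Rny3 (-3.78), and protein-coding genes such as Rpl29 (-1.42).

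Among protein-coding genes, Abcd4 and Moxd1 were the only ones at the smallest p with a higher value in HET. Abcd4 (ENSMUSG00000021240.5) encodes a lysosomal ABC transporter needed to release vitamin B12 into the cytosol. It stood at 5.57 FPKM in WT against 19.3 FPKM in HET, a 3.46-fold higher value. The authors' deposited table gave 1.79 ± 0.37 on the log2 scale (Cuffdiff, p = 5e-05, q = 0.0769). MUT, which also carries Cre, stood at 18.9 FPKM against 5.6 FPKM in WT in its own table.

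Moxd1 (ENSMUSG00000020000.7, chromosome 10, 24223517 to 24302790, mm10) encodes a monooxygenase related to dopamine beta-hydroxylase. It stood at 1.44 FPKM in WT against 4.33 FPKM in HET, 3.01-fold higher. The authors' deposited table gave 1.59 ± 0.55 (Cuffdiff, p = 5e-05, q = 0.0769), and MUT stood at 3.47 FPKM in its table with WT. Its protein-coding neighbours Stx7, Ctgf, Rps12 and Slc18b1 had log2 ratios of 0.08, 0.41, -0.03 and -0.08.

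**Figure D2:**
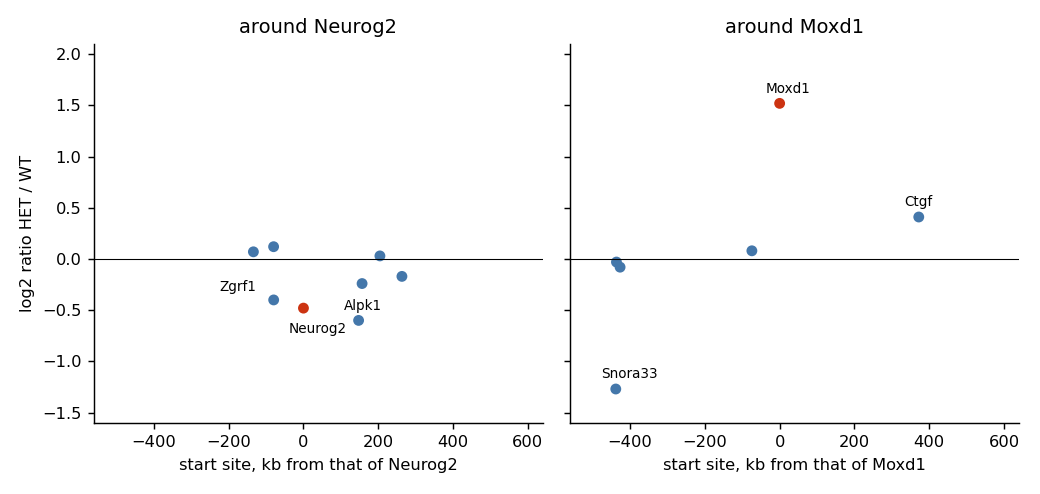
Log2 ratio of HET over WT (vertical axis) of every gene kept whose locus lies within 500 kb of Neurog2 or Moxd1, against the distance of its start site in kb from that gene's start site; the central gene is in red. Moxd1 stands at 1.52 and its protein-coding neighbours between -0.08 and 0.41, and Neurog2 at -0.48 lies between Alpk1 (-0.60) and Zgrf1 (-0.40).

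Among the other protein-coding genes of 1 FPKM or more that had a transcript at p under 0.05, those with high ratios encode proteins of diverse kinds. Lrrc17, a secreted leucine-rich repeat protein, stood at 8.72 FPKM in WT against 14.9 FPKM in HET, and the authors' deposited table gave 0.77 ± 0.42 (Cuffdiff, p = 0.00025, q = 0.348). Zic1, a zinc finger factor of neural progenitors, stood at 21.2 and 31.8 FPKM, while Zic2 and Zic5 had log2 ratios of -0.03 and -0.07. The authors' deposited table gave p = 0.0002 (q = 0.288) for the most abundant Zic1 transcript. Gsta4, a glutathione transferase that clears lipid aldehydes, stood at 22.1 and 32.5 FPKM. Krt19, an epithelial keratin, stood at 2.36 and 4.89 FPKM, and Tmem92, a membrane protein, at 2.02 and 4.13 FPKM. Zfp949, a zinc finger protein, stood at 6.27 and 12.3 FPKM, and 1 of its 4 transcripts (0.581 to 7.10 FPKM) held nearly all of the difference.

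Values in MUT, which carries Cre with both copies floxed, are set beside these. In MUT against WT, the log2 ratio was 0.78 for Zic1, 0.58 for Gsta4 and 1.03 for Zfp949, beside 0.58, 0.56 and 0.96 in HET. For Lrrc17 it was 0.24 beside 0.77, for Tmem92 0.37 beside 1.00 and for Krt19 0.58 beside 1.02. Fam132a, a secreted C1q-related protein at 39.3 FPKM in WT against 52.2 FPKM in HET, had -0.10 in MUT beside 0.41 in HET. Prss56, a serine protease gene made by Müller glia, had -0.15 beside 0.54. These comparisons share their WT samples, and no test of HET against MUT is drawn from them here.

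On the lower side, Lars2, the mitochondrial leucyl-tRNA synthetase, stood at 747.9 FPKM in WT against 347.9 FPKM in HET. The authors' deposited table gave -1.10 ± 0.77 for it (Cuffdiff, p = 0.00325, q = 1), and MUT stood at 178.8 FPKM. Atp6v0c, a membrane subunit of the vacuolar ATPase, stood at 97.3 and 48.1 FPKM, with 1 transcript going from 60.1 to 8.77 FPKM. Pgam1, a glycolytic mutase, stood at 148.0 and 107.1 FPKM, and the splicing factor Rnps1 at 66.1 and 47.8 FPKM. Aph1a, a gamma-secretase subunit, stood at 30.9 and 20.8 FPKM, and Robo3, an axon guidance receptor of commissural neurons, at 45.8 and 31.1 FPKM. In MUT, log2 ratios to WT were -1.06 for Atp6v0c, -0.60 for Pgam1, -0.53 for Rnps1, -0.56 for Aph1a and -0.63 for Robo3. In HET, those of the same genes were -1.02, -0.47, -0.47, -0.57 and -0.56.

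**Figure D3:**
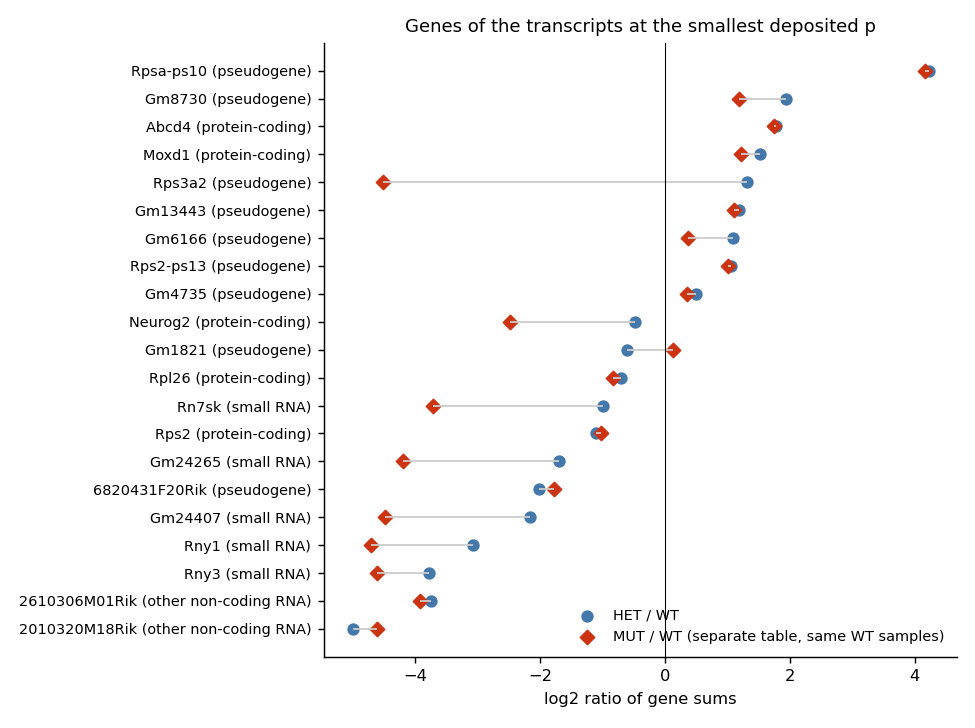
Log2 ratio of the gene sums for the 21 transcripts at the smallest deposited p, with HET over WT as blue circles and MUT over WT (a separate table with the same WT samples) as red diamonds. Abcd4 stands at 1.77 and 1.74, Neurog2 at -0.48 and -2.48, and Rps3a2 at 1.31 and -4.51.

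Rod genes tended to lower values in HET. Of 35 rod and shared photoreceptor genes kept, 8 had a ratio above 0 (22.9%, against 53.0% of all genes kept) and the median was -0.10. Cnga1, a subunit of the rod channel gated by cyclic GMP, had a log2 ratio of -0.73 (3.86 to 2.29 FPKM). Gnat1, the rod transducin alpha subunit, had -0.38. The factors that specify rods were closer to 0, at -0.12 for both Crx and Nrl and -0.11 for Nr2e3. Prdm1, a repressor that favours photoreceptor over bipolar fate, had 0.27. None of the rod genes named here had a transcript at p under 0.05. In bulk RNA, fewer cells of a type and less RNA per cell cannot be told apart.

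Genes of other retinal neurons and of Müller glia had medians near 0. Of 11 cone genes 4 were above 0 (median -0.08), and Opn1sw, the short-wavelength cone opsin, stood at 53.7 and 50.9 FPKM. Of 25 amacrine genes 14 were above 0 (median 0.04), ranging from Neurod2 (-0.24) to Ptf1a (0.20), a bHLH factor that specifies amacrine and horizontal cells. Of 24 ganglion cell genes 8 were above 0 (median -0.01), and 7 horizontal cell genes had a median of 0.00. Of 12 bipolar genes 9 were above 0 (median 0.03), and 10 of 21 Müller glia genes (median -0.01). Prss56, at 5.94 and 8.68 FPKM, was the only Müller glia gene with a transcript at p under 0.05 (Cuffdiff, p = 0.00435, in the authors' deposited table).

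Among the neurogenic bHLH factors and genes of newborn neurons, 10 of 28 were above 0, with a median of -0.03. Sox11, a factor of newly formed neurons, stood at 9.31 FPKM in WT against 6.77 FPKM in HET, and the authors' deposited table gave -0.46 ± 0.31 (Cuffdiff, p = 0.00105, q = 1). Its relative Sox4 had a ratio of 0.08. Neurod1 and Neurod4, which act in photoreceptor and amacrine precursors, had -0.18 and -0.13. Atoh7, the bHLH factor needed for ganglion cells, had -0.07 in HET and -0.68 in MUT. Nhlh1, a bHLH factor of postmitotic neurons, had -0.12 and -0.77. Of 33 Notch pathway genes 16 were above 0 (median -0.02), with Dll1, a ligand, at 0.12, Hes1, an effector, at 0.14, and Hes5 at 0.00.

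Progenitor and cell cycle genes had small ratios that were mostly above 0. Of 22 progenitor genes 20 were above 0 (90.9%), with a median of 0.06. Fgf15, a growth factor of dividing progenitors, stood at 63.0 and 78.6 FPKM, and the authors' deposited table gave 0.32 ± 0.28 (Cuffdiff, p = 0.01095, q = 1). Rax, an eye field homeodomain factor, went the other way, at 133.6 and 107.0 FPKM. Of 41 genes of G2 and mitosis, 37 were above 0 (90.2%), with a median of 0.09 and none with a transcript at p under 0.05. Cenpf, a kinetochore protein, had 0.30, Ccna2, a cyclin, 0.24 and Top2a, a topoisomerase, 0.21. Of 40 genes of DNA replication and S phase, 31 were above 0 (median 0.06), and 12 of 17 G1 cyclins, kinases and inhibitors (median 0.05). Fen1, a flap endonuclease, stood apart at 12.2 and 3.53 FPKM, with no transcript at p under 0.05.

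**Figure D4:**
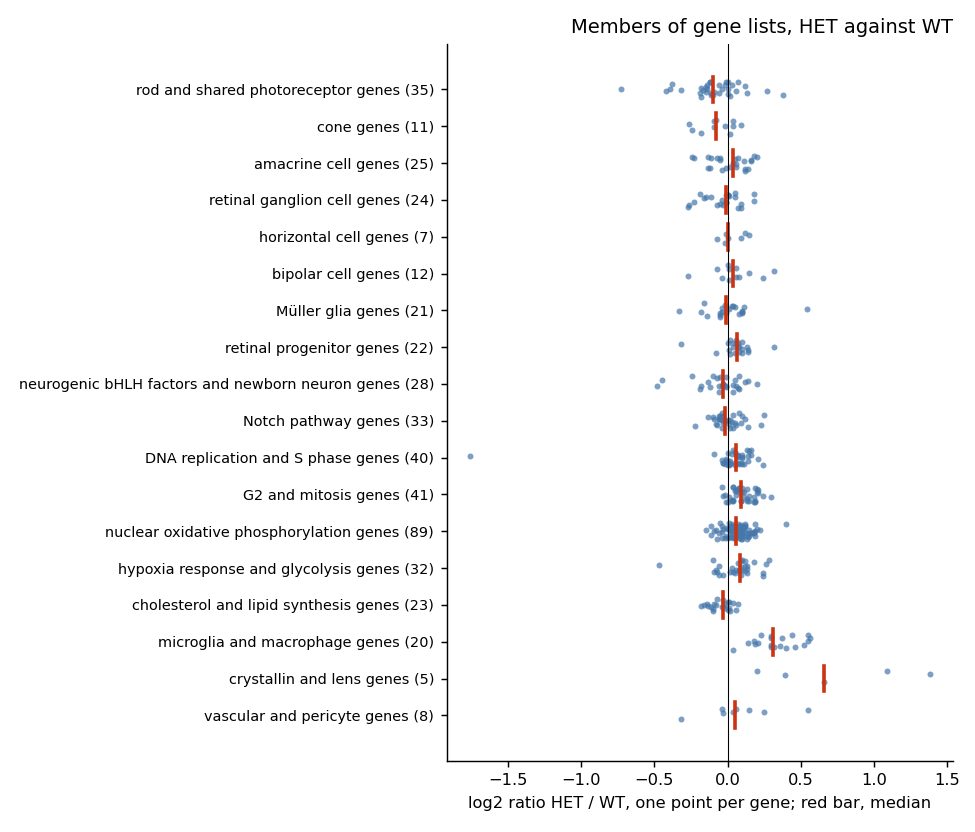
Log2 ratio of HET over WT (horizontal axis) for each member of 18 gene lists, 1 point per gene, with the median as a red bar and the number of genes kept in brackets. The 20 microglia genes all lie above 0 (median 0.31), rod genes have a median of -0.10, and G2 and mitosis genes one of 0.09.

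Microglia and macrophage genes all had higher values in HET. All 20 kept of 23 on the list were above 0, with a median of 0.31 and a range of 0.04 to 0.56, and their sum was 110.1 FPKM in WT against 140.3 FPKM in HET. Tyrobp, a signalling adaptor, stood at 15.3 and 21.1 FPKM, Ctss, a lysosomal protease, at 6.45 and 9.51 FPKM, and Ly86, a partner of the Toll-like receptor relative Cd180, at 4.91 and 7.24 FPKM. The authors' deposited table gave p = 0.0449, 0.02295 and 0.0323 (Cuffdiff) for a transcript of each. Tmem119, Spi1 and Adgre1 were kept only for their HET value. The complement genes C1qa, C1qb and C1qc had 0.30, 0.36 and 0.32. In MUT against WT the same genes had 0.57, 0.38 and 0.72.

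Crystallin genes were near the limit of the filter. The 5 kept of 25 were all above 0 (median 0.66), and their sum was 5.71 FPKM in WT against 8.96 FPKM in HET. Cryga stood at 0.60 and 1.72 FPKM and Cryaa at 0.47 and 1.11 FPKM, both structural lens proteins kept for their HET value alone, with MUT at -1.13 and -0.16 on the log2 scale against WT. Of 8 vascular and pericyte genes kept, 5 were above 0 (median 0.05), and Rgs5, a pericyte gene, stood at 0.885 and 1.35 FPKM. The 3 blood genes were below 0, led by Hba-a1, an alpha globin (-0.40), and retinal astrocyte and pigment epithelium genes had medians of 0.00 and 0.07. The part that such cells take in the other results was not tested.

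Sex-linked genes had unequal values in the groups, with no transcript of the 5 genes listed first at p under 0.05. Xist, made from the inactive X chromosome, stood at 98.3 FPKM in WT against 63.2 FPKM in HET. The Y-linked genes Kdm5d, Ddx3y, Uty and Eif2s3y had log2 ratios of 0.51, 0.57, 0.71 and 0.78. MUT stood at 135.0 FPKM for Xist and at 0.00117 FPKM for Kdm5d, against 98.8 and 3.73 FPKM for WT in that table, where the sum for Kdm5d covers fewer transcripts. Of the X-linked relatives, Kdm6a had -0.23 (1 transcript at p = 0.01905, Cuffdiff, in the authors' deposited table), Eif2s3x -0.12, Ddx3x 0.03 and Kdm5c 0.04. The labels used here do not give the sex of the animals, and the part of sex in the other results was not tested.

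Genes of energy metabolism also lay slightly above 0. Of 89 nuclear genes of oxidative phosphorylation 73 were above 0 (82%), with a median of 0.06, and of 32 hypoxia and glycolysis genes 24 (median 0.08). Pdk1, a kinase that inhibits pyruvate dehydrogenase, had 0.28 and Bnip3, a mitophagy receptor, 0.24, while MUT had -0.03 and 0.01. Pgam1 went the other way in HET (-0.47) and was the only hypoxia and glycolysis gene with a transcript at p under 0.05. The oxidative phosphorylation genes are short, with a median length of 717 nt. Protein-coding genes of 500 to 1000 nt were above 0 in 69.6% of cases, against 49.1% at 2000 to 4000 nt and 43.3% above 4000 nt. Length therefore moved with the ratio over the whole table, and its part in the ratio of any list was not tested.

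Transcripts also differed by length. The median log2 ratio was -0.27 up to 200 nt, 0.19 from 200 to 300 nt, 0.18 from 300 to 500 nt and 0.13 from 500 to 1000 nt. It was 0.03 from 1000 to 2000 nt and -0.02 above 4000 nt.

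The shortest transcripts include the small RNAs, whose class was lower in HET in most but not all members. The 175 small RNA genes by annotation had a median of -0.57. Of these 61 were 2-fold or more lower and 22 were 2-fold or more higher, and the class went from 3.81% to 2.33% of the FPKM of all genes kept. Rny3 stood at 4860.3 FPKM in WT against 354.1 FPKM in HET, 7.28% of the WT value, and Rny1 at 2894.3 and 345.6 FPKM, 11.9%. The near-identical pair printed above stood at 818.6 and 252.4 FPKM (Gm24265) and at 657.3 and 147.4 FPKM (Gm24407). Rn7sk, the RNA that holds the elongation factor P-TEFb inactive, stood at 355.7 and 178.2 FPKM, and in MUT at 27.2 FPKM. Snord55, Snord23 and Snora61, which guide chemical marks on ribosomal RNA, went the other way with log2 ratios of 2.85, 2.75 and 3.02. In MUT, Rny1 and Rny3 stood at 111.1 and 198.7 FPKM. The authors' deposited table gave test statistics of -44.9 for Rny1 (p = 5e-05) and -26.7 for Snord13 (p = 0.0435, Cuffdiff), so its p-values did not follow the size of the statistic.

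Histone genes split by kind. The 48 genes with clustered Hist symbols, most of which make replication-dependent histones whose mRNAs end in a stem loop in place of a poly(A) tail, had a median of -0.81. Of these 42 were below 0, 17 were 2-fold or more lower, and 16 had a transcript at p under 0.05, all lower, beside 0.854% of all genes kept. Hist1h1b, a linker histone, stood at 2.94 and 1.07 FPKM, Hist1h2bg at 2.48 and 0.542 FPKM and Hist1h4f at 5.15 and 1.66 FPKM. Hist1h3f stood at 1.70 and 0.445 FPKM (Cuffdiff, p = 0.0003, q = 0.405, in the authors' deposited table). Hist1h2bb, Hist1h2bg, Hist1h2bh, Hist1h3f and Hist1h3i were among the Hist genes kept only for their WT value. For such genes the filter favours a lower value in HET, and they are part of these counts. Hist1h2al was higher, at 1.04 on the log2 scale. The 12 genes with H2af, H3f3 or H1f symbols were all above 0, with a median of 0.11. These summed to 6256.5 FPKM in WT against 6661.2 FPKM in HET, and the Hist genes to 343.0 and 302.1 FPKM. The sources used here do not say whether poly(A) RNA was selected, and its part in these values was not tested.

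**Figure D5:**
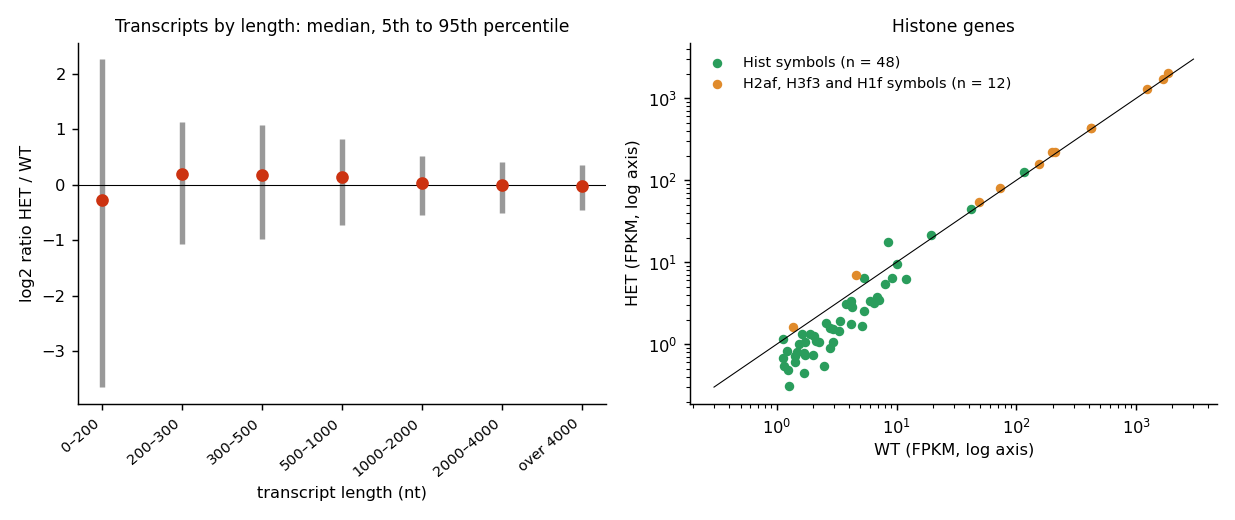
Left, log2 ratio of HET over WT by transcript length, with the median as a red point and the 5th to 95th percentile as a grey bar. Right, FPKM in HET against WT for histone genes on log axes, with the line of equal values. Hist genes (48) lie mostly below the line and H2af, H3f3 and H1f genes (12) all lie above it.

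Pseudogenes, many of which are processed copies of mRNAs pasted into the genome, were the class with the highest median. Of 371 of all kinds kept, 285 were above 0 (median 0.32), and 9 of the 21 transcripts at the smallest p came from this class. Of those 9, 6820431F20Rik (8.44 to 2.01 FPKM) is annotated as unprocessed and matched its closest protein-coding gene over 12.6% of its length, and the others are annotated as processed. Rpsa-ps10 stood at 4.25 FPKM in WT against 81.2 FPKM in HET, and the authors' deposited table gave 4.26 ± 0.65 (Cuffdiff, p = 5e-05, q = 0.0769). Its transcript is 99.3% identical to Rpsa, the ribosomal protein it was copied from, which stood at 739.0 and 703.2 FPKM. The sum of both had a log2 ratio of 0.08.

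Other pairs of a pseudogene and its best protein-coding match are set side by side here. Gm8730 had 1.93 and its 98.7% identical parent Rplp0 -0.05, and their sum -0.01. Rps2-ps13 had 1.05 and Rps2 -1.11 (475.4 to 219.9 FPKM), with a sum at -0.53. Gm13443 had 1.19 and Glo1, a glyoxalase, 0.09. Gm1821 went the other way at -0.61, with its parent Ubb, a polyubiquitin, at 0.11. Over 65 pairs matched by name, 57 pseudogenes were above 0 (median 0.38), while 14 of the 53 parents were above 0 (median -0.06), and the sums had a median of -0.03. Values of single members of such pairs are uncertain, since the same reads can be assigned to either.

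The same limit holds for cytosolic ribosomal protein genes. The 84 kept by symbol had a median of -0.02, and among them Rps3a2, Rps3a3 and Rps4l (1.31, 1.50 and -0.32) are annotated as pseudogenes. Rpl26 stood at 689.0 and 424.1 FPKM (log2 fold change of its main transcript -0.71 ± 0.35 in the authors' deposited table, Cuffdiff, p = 5e-05, q = 0.0769). Rpl29 stood at 246.7 and 92.3 FPKM and Rps27 at 1450.9 and 953.5 FPKM.

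Some transcripts differed while their gene did not. Of the 227 transcripts at p under 0.05, 16 belonged to genes whose sum had the other sign, and 22 to genes whose sum was within 0.1 of 0. A transcript of Tdg, a thymine DNA glycosylase, stood at 15.3 and 2.39 FPKM (Cuffdiff, p = 0.0005, q = 0.637, in the authors' deposited table), while the gene stood at 72.1 and 70.9 FPKM. For Hmgn2, a nucleosome-binding protein, 1 transcript went from 462.1 to 192.8 FPKM and another from 980.3 to 1340.8 FPKM, and the gene had a log2 ratio of 0.06.

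Of the 47 gene lists examined, 40 had a median within 0.1 of 0. The 4 above were the lens, microglia, sex-linked and ribosomal pseudogene lists (38 genes, median 0.39), and the 3 below were the histone (60 genes, median -0.60), small RNA (73 genes taken by symbol, 19 above 0, median -0.62) and blood lists. Pathway lists without a described result stayed near 0. Medians were -0.02 for Wnt, -0.03 for BMP and TGF-beta, 0.09 for retinoic acid, 0.02 for axon guidance, -0.03 for cholesterol synthesis and 0.04 for cell death and Trp53 targets.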

How the data were processed

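The labels place 15 P2 retina samples in 3 groups of 5. The submitters' processing notes name Bowtie2, Cufflinks, Cuffdiff and mm10, and the sources used here do not name an annotation release. The authors deposited, per transcript, an FPKM value for each group, a log2 fold change, a p-value, a q-value and a test statistic, which is an unbounded score, per the file headers. No values per sample were used, so depth is unknown. The p-values set the difference between groups against the variance that Cuffdiff modelled from these samples, which may be technical.

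FPKM values were summed by gene symbol (98 symbols that had become dates were restored by gene identifier), genes needed 1 FPKM in either group, and ratios were log2 of (FPKM + 0.1), which understates changes of low genes. Class, length and sequence came from GENCODE M21 on GRCm38, and pseudogenes were matched with blastn 2.17.0 (pandas 2.3.3). The code was tested on simulated data. No test beyond that of the authors was run. Named genes were those at the smallest p, the 12 highest and lowest protein-coding ratios with a transcript at p under 0.05, the 8 highest and lowest from 20 FPKM, and list members at p under 0.05. Others were chosen after their values were seen. The members and the 47 lists were chosen with earlier results of these data known. The small RNA pattern also took Scarb1, Scarb2, Scara3 and microRNA host genes. Results that need some genes are left out.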

Additional observations from a re-analysis of the deposited data

How the results depend on the processing

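No paired analysis was possible because the deposited values are pooled over each group, and for the same reason no sample could be left out. The log2 ratio of Neurog2 stayed between -0.47 and -0.49 under every alternative run. At a q-value limit of 0.10 the authors' table called 21 transcripts in place of 0. Counts of genes differing 2-fold depended on the choices. Genes higher by 2-fold numbered 56 in the main setting, 33 with a pseudocount of 1, 91 without a filter on level, 8 over transcripts of 1000 nt or more and 7 over protein-coding transcripts. Genes lower by 2-fold numbered 134 in the main setting, 88 with group values from the tables against MUT, 44 over transcripts of 1000 nt or more and 46 over protein-coding transcripts. The last pair of settings was chosen after seeing the data, and both leave out most small RNAs and pseudogenes by construction. The share of genes above 0 was 53% in the main setting, 45.6% and 46% in those settings, 48.9% with the highest transcript per gene and 50% after centring on the median gene. Over transcripts of 1000 nt or more, the median of the histone list turned to 0.05 and Rps2 to 0.27. Hist genes with shorter transcripts, such as Hist1h1b (743 nt) and Hist1h4f (391 nt), are left out of that list median. Over protein-coding transcripts the small RNA list turned to 0.00. By construction it then holds no small RNA, only other genes that its symbol pattern took. Both list medians therefore cover other members than in the main setting. Ebf1 turned to 0.15 with its highest transcript, and the cause was not tested for Rps2 and Ebf1. Of the 47 list medians, 47 moved by less than 0.1 with a pseudocount of 0.01 and 44 at a filter of 2 FPKM.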

Other observations

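Pcdhgb7, a clustered protocadherin, stood at 1.36 FPKM in WT against 0.0607 FPKM in HET, while the other 55 protocadherin and cadherin genes kept had log2 ratios between -0.36 and 0.23. Pcdhgb7 was kept only for its WT value, near the limit of the filter, which for such a gene favours a lower value in HET. Cpne8, a calcium-dependent membrane-binding protein, stood at 26.0 and 7.98 FPKM with no transcript at p under 0.05. Both were chosen after their values were seen. By chromosome, the median log2 ratio was 0.57 over the 5 genes kept on Y and -0.11 over the 12 on the mitochondrial genome. Of the 8 mitochondrial mRNAs among those 12, 5 were above 0 (median 0.10), from mt-Nd6 (-0.20) to mt-Co2 (0.19). The mitochondrial ribosomal RNA mt-Rnr1 stood at 314.5 and 220.0 FPKM (Cuffdiff, p = 0.00175, in the authors' deposited table).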
